A study of Mus musculus with 12 samples.

Results

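The response of STAT5A-reconstituted mouse embryonic fibroblasts (MEFs) to growth hormone is described here over 18193 genes. The cells, called S5, were C57BL/6 MEFs without both Stat5 genes, into which a vector holding STAT5A had been brought by retroviral infection. The members are the 4 S5 arrays of the 12 in the series, 2 of untreated cells and 2 of cells given growth hormone for 120 minutes, chosen by their sample titles. A gene with several probe sets was read from the one whose mean across the 12 arrays was highest. The other 8 arrays were those of wild-type (WT) MEFs and of MEFs lacking Stat5 (KO), both of the same strain, 2 untreated and 2 given the hormone for the same time in each. Both S5 groups carry the deletion as well as the vector, and the WT and KO groups are not described as carrying any vector. No vehicle-treated cells, no KO cells with an empty vector and no second line of reconstituted cells are named in the labels. The cell line and the vector therefore cannot be told apart. Each pair of arrays is described by the study as biological duplicates. No label says whether these came from separate cultures, so the p-values measure the spread between these arrays, which may be technical.

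Growth hormone binds a cell surface receptor that activates the kinase JAK2. JAK2 then phosphorylates STAT5A and STAT5B, which pair up, enter the nucleus and bind palindromic DNA elements near their target genes. Among the best known early targets are the feedback inhibitors Cish, Socs2 and Socs3, the repressor gene Bcl6, whose transcript STAT5 lowers, and, in liver, the growth factor gene Igf1. Fibroblasts carry the receptor and are a widely used culture model of this pathway.

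All values are deposited log2 expression values. The probe sets of S5 arrays fell into a low mode, in which a gene is at or near the background of the array, and an expressed range. A level of 4 was taken as the bound between them, chosen after the data were seen. A group whose arrays both read under 4 was assigned the value 4, and its fold is then a lower limit, written "at least". Array medians of the 4 S5 arrays ran from 2.89 to 3.02, and the share of probe sets above the bound from 45.2 to 45.8 percent. Duplicates correlated across 10745 genes with r = 0.995 (untreated) and r = 0.992 (hormone), and genes are not independent replicates. The gap between the 3′ and 5′ probe sets of Gapdh, a measure of RNA integrity, was 1.47 and 1.44 in untreated S5 cells and 1.62 and 1.55 in treated ones, without overlap. That of Actb was 3.05 and 3.06 against 3.09 and 3.15, and the part of these gaps in the results was not tested.

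Cell type markers were checked against the label. All 16 fibroblast markers were above the low mode in at least 1 S5 group, with a mean of 11.5 to 11.7 on the untreated arrays and 11.3 to 11.4 on the treated ones, and 1 of them passed the test, as a fall. Thy1, a fibroblast surface protein, was weak, at 5.09 and 3.53 untreated and 2.20 and 3.55 with hormone. It had a mean of 14.24 in untreated KO and 14.21 in untreated WT cells. The fibroblast list had a mean of 12.63 to 12.75 per array in KO and 13.06 to 13.23 in WT cells. The part of these differences in the comparisons between genotypes was not tested. Of 15 macrophage and blood markers, 4 were above the bound, and the mean of the list was 3.38 and 3.66 untreated and 3.29 and 3.26 treated. The pan-leukocyte gene Ptprc stood at 2.45 to 2.49 on all 4 S5 arrays. Epithelial markers were above the bound in 0 of 10 cases, endothelial ones in 2 of 10, skeletal muscle ones in 1 of 10 and neural ones in 5 of 9. In RNA from whole cultures, fewer cells of a type and less RNA per cell cannot be told apart.

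Growth hormone raised 660 genes (3.63 percent of those tested) and lowered 773 (4.25 percent) in S5 cells, at an adjusted p under 0.05 in limma. Of these, 206 (1.13 percent) rose at least 2-fold and 155 (0.852 percent) fell at least 2-fold, with low groups set to the bound. The median size of a rise was 0.77 on the log2 scale and that of a fall 0.62, so that most changes were below 2-fold. The median change of all genes was -0.022. Changes were found at every level of expression: 6.85 percent of the genes with a mean between 4 and 6 rose, as did 3 percent of those at 12 and above. Centring each array on its median left 513 rises and 1081 falls, which moves the share of rises among called genes from 46.1 to 32.2 percent.

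The number of calls fell when any S5 array was left out. Such a fit leaves 1 array in that group, and for the same spread the SE is then wider whichever array is removed. A lost call therefore does not show that the call rested on the array left out. Without untreated replicate 1 or 2, 682 and 552 genes were called, and without treated replicate 1 or 2, 661 and 1180. Falls outnumbered rises in the full fit (773 and 660), while rises outnumbered falls without treated replicate 1 (368 and 293). A fit to the 4 S5 arrays alone, with 2 residual degrees of freedom, called 272 rises (1.5 percent) and 260 falls (1.43 percent). The 40 largest rises depended little on any array: 39 of them were called in each of the 4 fits that left out an S5 array. Of the 40 largest falls, 26 were called in all 4.

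**Figure D1:**
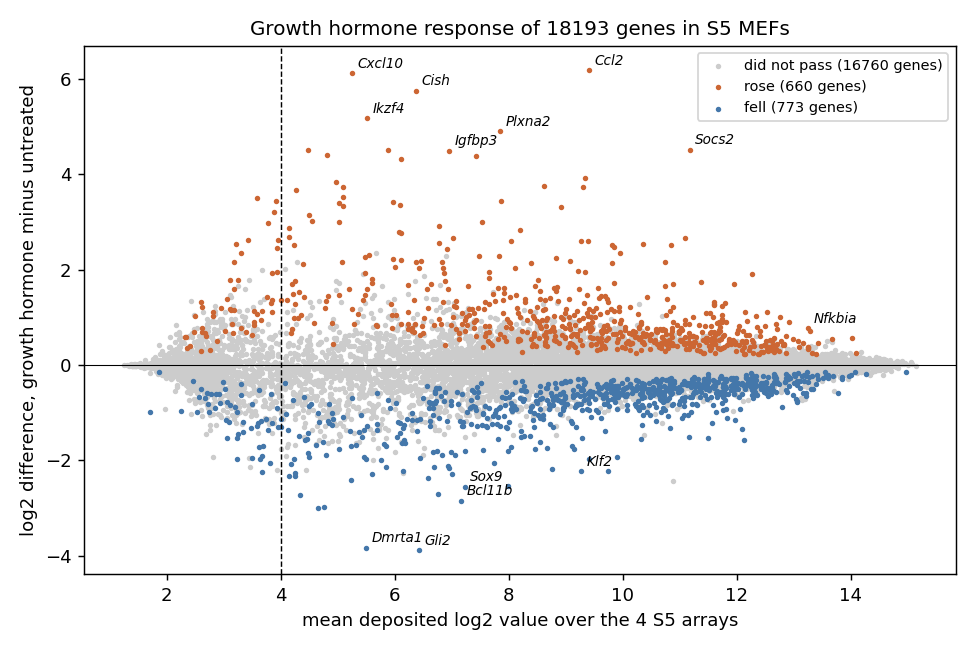
Mean deposited log2 value over the 4 S5 arrays (x axis) against the log2 difference between growth hormone and untreated S5 cells (y axis), 1 point per gene. The dashed line is the low-mode bound at 4; the rises reach 6.18 (Ccl2) and the falls -3.88 (Gli2).

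Feedback inhibitors of the pathway were among the genes with the largest changes. Of 8 SOCS family members, 3 rose (37.5 percent, against 3.63 percent of all genes) and 0 fell (0 also at an unadjusted p under 0.05 in limma). All 3 were called without any given S5 array. Cish, the cytokine-inducible inhibitor that binds phosphorylated receptors, read 3.45 and 3.55 untreated and 9.33 and 9.17 with hormone. It went from the low mode to a clearly measured level, and the groups lie far apart. Its rise was at least 38.1-fold (log2 change 5.75 ± 0.16 SE, adjusted p = 4.29e-06).

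Socs2, which limits growth hormone signalling in the body, read 8.88 and 8.96 untreated and 13.22 and 13.64 with hormone. It was already expressed before treatment and rose 22.8-fold (4.51 ± 0.13 SE, adjusted p = 4.29e-06). Socs3, an inhibitor that blocks JAK kinases, read 8.77 and 9.41 untreated and 11.88 and 11.36 treated. Both treated arrays exceeded both untreated ones, with a 5.78-fold rise (2.53 ± 0.30 SE, adjusted p = 0.00397).

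The receptor and its kinase did not pass the test. Ghr stood at 14.09 and 14.03 untreated and 14.12 and 14.08 treated (adjusted p = 0.764), near the top of the scale. Jak2 read 12.26 and 12.21 against 12.39 and 12.46 (adjusted p = 0.157). Among the 31 measured genes of JAK-STAT signalling there were 4 rises and 4 falls (12.9 percent each, against 3.63 and 4.25 percent of all genes). Their median change was 0.041, against -0.022 over all genes. The tyrosine phosphatase genes Ptpn1 and Ptpn2, whose products remove phosphate from JAKs and STATs, rose by 1.10 and 0.43. A second probe set of Ptpn2 differed by -0.13. Stat2, the interferon pathway member, rose by 1.19, and Pias4, a SUMO ligase that binds STATs, by 0.72. Stat3 fell by 0.49, the SUMO ligase gene Pias1 by 0.59 and the insulin receptor substrate gene Irs1 by 0.49, while Irs2, also called as a fall, was in the low mode in both groups. Of these 8, Ptpn1 and Pias1 were called without any given S5 array.

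The probe sets named for the STAT5 genes gave unlike readings. The Stat5a probe set used for the gene read between 2.34 and 2.42 on the 4 S5 arrays, in the low mode, and had a mean of 11.48 in untreated WT cells. A second Stat5a probe set, noticed after its values were seen, read 9.86 and 9.90 untreated and 9.04 and 9.14 with hormone in S5 cells. It had a mean of 2.24 in untreated WT and 2.23 in untreated KO cells. On it, the treated S5 arrays lay 0.79 below the untreated ones. Stat5b stood at 1.94 to 1.96 on all 4 S5 arrays.

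Bcl6, a transcriptional repressor, read 12.11 and 12.23 untreated and 11.08 and 10.83 with hormone. The groups do not overlap, and the 2.33-fold fall passed the test (-1.22 ± 0.10 SE, adjusted p = 0.000868) and was called without any given S5 array. Igf1, the growth factor known as the main mediator of the hormone in liver, read 6.71 and 6.82 against 7.62 and 7.41. Its log2 difference of 0.75 ± 0.27 SE missed the threshold (adjusted p = 0.168).

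Promoter sequences bear on these genes because STAT proteins bind pairs of TTC and GAA half-sites. The letters TTCNNNGAA, which read the same on both strands, were searched in the 250 bases before each RefSeq gene start (GRCm38.p6). Of 158 genes that rose at least 2-fold and have a promoter in the table, 24 held a match (15.2 percent), as did 12 of 124 that fell at least 2-fold (9.68 percent). The share was 7.42 percent of the 14452 tested genes with a promoter and 7.02 percent of all promoters in the table. These shares were not tested, and a match is a description of letters, not of a bound site. No match lies in the Cish window. The 4 windows below come from 3 interferon-inducible genes that rose and from Bcl6, which fell, and the capitals mark the matches.

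Gbp7, chr3:142530185-142530283, plus strand: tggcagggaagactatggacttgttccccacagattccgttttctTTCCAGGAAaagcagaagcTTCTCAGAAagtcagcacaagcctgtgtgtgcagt
Irf1, chr11:53769879-53769977, plus strand: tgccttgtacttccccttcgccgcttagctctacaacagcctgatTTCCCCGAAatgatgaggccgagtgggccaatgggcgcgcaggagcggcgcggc
Igtp, chr11:58199466-58199555, plus strand: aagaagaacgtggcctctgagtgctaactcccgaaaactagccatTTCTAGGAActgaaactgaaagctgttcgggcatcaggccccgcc
Bcl6, chr16:23988917-23989015, minus strand: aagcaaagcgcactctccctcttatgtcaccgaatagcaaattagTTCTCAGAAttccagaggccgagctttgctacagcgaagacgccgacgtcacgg

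Counted from the gene start, the Gbp7 window holds 2 matches, whose first bases lie at -106 and -87, and the other 3 hold 1 each. Their first bases lie at -90 in Irf1, -45 in Igtp and -118 in Bcl6.

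Of 32 measured chemokines 7 rose (21.9 percent, against 3.63 percent of all genes), each at least 2-fold, and 1 fell, Cxcl17, which was in the low mode in both groups. The list holds 17 genes in the low mode in both S5 groups, and its median change was 0.005. Ccl2, which draws monocytes, showed the largest rise of all genes tested on the floored scale. It read 6.36 and 6.27 untreated and 12.68 and 12.33 treated, a 72.7-fold rise (6.18 ± 0.15 SE, adjusted p = 2.17e-06).

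Ccl7, the neighbour of Ccl2 in sequence and function, read 6.69 and 6.78 untreated and 10.68 and 10.31 treated, 13.6-fold higher (adjusted p = 9.99e-05). The neutrophil attractant Cxcl5 read 7.36 and 7.38 against 11.22 and 11.38, 15.2-fold higher (adjusted p = 0.000248). Cxcl10, a T cell attractant known as an interferon target, read 2.30 and 2.08 against 8.27 and 8.34 and so rose at least 19.8-fold (adjusted p = 1.97e-06). In these 4 genes every treated array was well above every untreated one, and all 4 were called without any given S5 array.

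Cxcl1, another neutrophil attractant, rose 5.72-fold, from 9.55 and 9.63 to 12.18 and 12.03. Its adjusted p was 0.0231 and lay between 0.072 and 0.117 with any of the 4 S5 arrays left out. The fit to S5 arrays alone gave Cxcl1 an adjusted p of 0.0273. Ccl17 rose 4.10-fold and the membrane-bound chemokine gene Cx3cl1 2.17-fold, and both lost their call without untreated replicate 1 (adjusted p = 0.0842 and 0.0916). Ccl17 also lost it without treated replicate 1 (0.074) and Cx3cl1 without untreated replicate 2 (0.0707). Among 28 cytokines and colony stimulating factors 2 rose and 2 fell (7.14 percent each, against 3.63 and 4.25 percent of all genes). Csf1, the macrophage growth factor, rose 2.45-fold, from 11.22 and 11.08 to 12.50 and 12.39 (adjusted p = 0.000735). The other probe sets of Csf1 differed by 0.27, 0.43 and 1.46. Il1rn, the interleukin 1 receptor antagonist, fell 3.97-fold, from 7.05 and 6.45 to 4.85 and 4.67 (adjusted p = 0.00679).

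The NF-kB system showed the highest share of rises among the classes with 20 or more measured genes. Of 24 subunits, inhibitors and brakes, 12 rose (50 percent, against 3.63 percent of all genes) and 0 fell (0 also at an unadjusted p under 0.05). The median change was 0.795, against -0.022 over all genes. The call of 7 of the 12 held without any given S5 array: Bcl3, Birc3, Nfkbia, Nfkbiz, Relb, Tnfaip3 and Zc3h12a. Bcl3, a nuclear partner of the p50 and p52 subunits, read 2.91 and 4.33 untreated and 8.18 and 8.08 treated, a change of 4.51 ± 0.41 SE (adjusted p = 0.00145). The untreated mean of 3.62 is under the bound, from which the rise was at least 17.5-fold. Its untreated arrays lie on either side of the bound, while the treated ones are close to each other.

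Relb, a subunit of the noncanonical branch, read 6.29 and 5.76 untreated and 9.04 and 9.02 treated, 8.02-fold higher (adjusted p = 0.000208). Nfkbiz, a nuclear coactivator of the IkB family, read 8.01 and 8.17 against 10.69 and 10.67, 6.04-fold higher (adjusted p = 0.00164). Another expressed probe set of Nfkbiz differed by 0.49. The IkB-alpha gene Nfkbia, which holds NF-kB in the cytoplasm, read 12.84 and 12.87 against 13.62 and 13.65, 1.71-fold higher (adjusted p = 0.000755). The other probe sets of Nfkbia differed by 0.94 to 2.64. Brakes on the pathway rose beside its subunits. The deubiquitinase gene Tnfaip3 (A20) rose 4.90-fold, the ubiquitin ligase gene Birc3 2.69-fold, and Zc3h12a, an RNase that degrades inflammatory transcripts, at least 2.40-fold.

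Nfkb2 (2.26-fold), Nfkbie (2.43-fold), Map3k8 (at least 2.24-fold), Tnip1 (1.40-fold) and Tnip2 (1.76-fold) make up the 12, and each lost its call in 2 or more of the 4 fits that left out an S5 array. The letters GGG and TTCC with any 3 letters between them, on either strand, resemble NF-kB elements. They occurred in 6.96 percent of promoters where the rise was 2-fold or more (11 of 158). Where the fall was that large the share was higher, at 8.06 percent (10 of 124). It was 5.76 percent over all tested genes and 4.65 percent over all promoters in the table. No difference between these shares was tested. The windows of Cxcl10 and Nfkbia are shown as examples of rising genes with matches, in capitals.

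Cxcl10, chr5:92348939-92349038, minus strand: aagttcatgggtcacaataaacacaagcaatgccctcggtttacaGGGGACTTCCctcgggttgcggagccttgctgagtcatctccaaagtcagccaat
Nfkbia, chr12:55492648-55492721, minus strand: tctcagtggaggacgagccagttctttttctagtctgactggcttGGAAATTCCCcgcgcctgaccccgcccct

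Interferon-inducible genes had a share of rises above that of all genes and a share of falls near it. Of 43, 7 rose (16.3 percent, against 3.63 percent of all genes), 5 of them at least 2-fold. Another 2 fell, and 19 were in the low mode in both groups. The median change was -0.018. The genes that rose at least 2-fold were GTPase genes and the transcription factor gene Irf1. The immunity-related GTPase gene Ifi47 read 2.77 and 2.44 untreated and 6.97 and 7.04 treated, at least 8.03-fold higher (adjusted p = 4.21e-05). Gbp7, a guanylate-binding GTPase gene, read 5.36 and 5.28 against 8.32 and 8.15, 7.52-fold higher (adjusted p = 0.000619).

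Irf1, a transcription factor of this group, read 7.19 and 7.46 against 9.51 and 9.41, 4.38-fold higher (adjusted p = 0.00164). The GTPase gene Igtp rose 4.65-fold, from 4.45 and 5.27 to 6.88 and 7.27. These 4 genes were called without any given S5 array and each had separate groups. Irgm2, a further GTPase gene, rose 4.07-fold and lost its call without untreated replicate 1 (adjusted p = 0.0536). Psmb10, an immunoproteasome subunit gene, and Bst2 (tetherin) rose by 0.67 and 0.72 and lost their calls in each of the 4 fits.

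The 2 falls on the list (4.65 percent, against 4.25 percent of all genes) were both antiviral IFIT genes. Ifit3 read 11.07 and 11.10 untreated and 9.45 and 9.64 treated, 2.91-fold lower (adjusted p = 0.0116). Ifit2 read 11.21 and 11.22 against 10.34 and 10.20, 1.92-fold lower (adjusted p = 0.00834). Both lost their calls without untreated replicate 2 (adjusted p = 0.07 for Ifit3 and 0.0527 for Ifit2), and Ifit3 also without untreated replicate 1 (0.0588) or treated replicate 1 (0.0705). Both passed in the fit to S5 arrays alone (0.0396 for Ifit3 and 0.0420 for Ifit2). Ifit1bl2, which lies outside the list and is among the 40 largest falls, read 8.72 and 8.81 against 6.49 and 6.95 and fell 4.13-fold (adjusted p = 0.00472). Sting1, which signals the presence of cytosolic DNA, rose 6.37-fold (5.30 and 6.08 against 8.65 and 8.07, adjusted p = 0.00312).

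**Figure D2:**
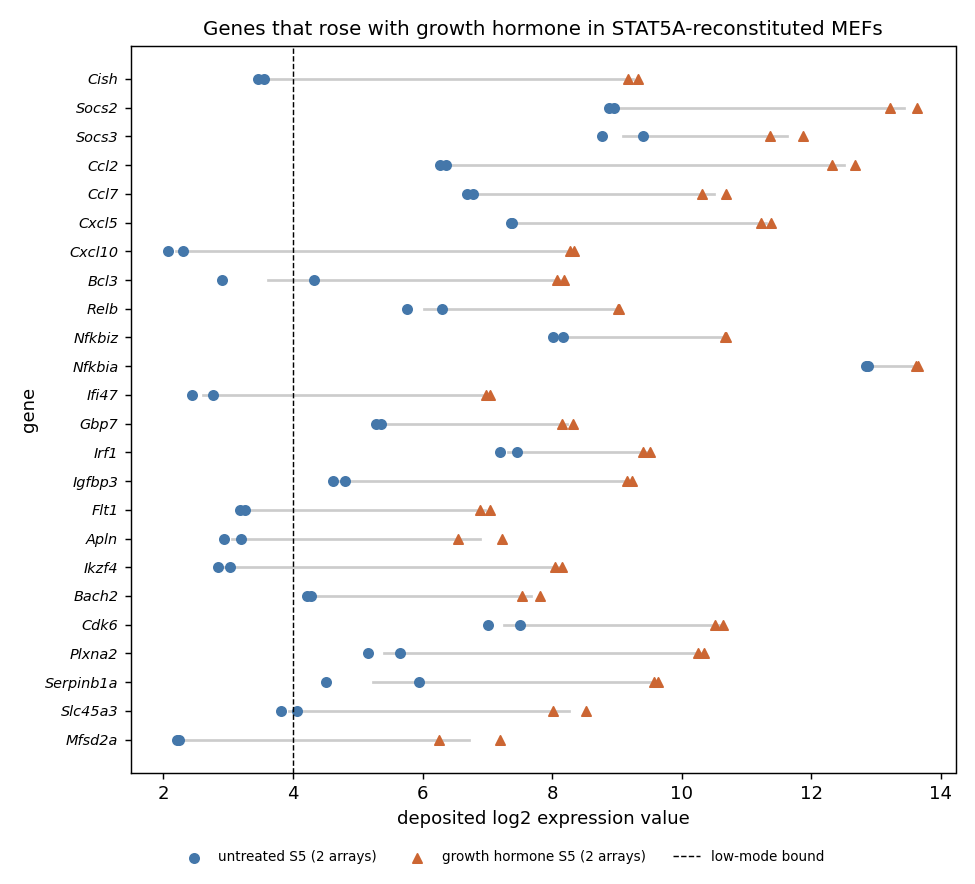
Deposited log2 value on each of the 4 S5 arrays (x axis) for 24 genes that rose (y axis); grey lines join the group means and the dashed line is the low-mode bound. In each of the 24 both treated arrays lie above both untreated ones, which held for 19.6 percent of all genes, as for Ccl2 (6.36 and 6.27 against 12.68 and 12.33).

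Growth factors and their partners showed a few large changes within lists that were mostly still. Of 18 genes of the IGF system, 1 rose and 2 fell (5.56 and 11.1 percent, against 3.63 and 4.25 percent of all genes). Igfbp3, a protein that binds IGFs outside the cell, read 4.80 and 4.61 untreated and 9.16 and 9.23 treated, 22.4-fold higher (4.49 ± 0.11 SE, adjusted p = 2.98e-06). The IGF receptor gene Igf1r fell by 0.76 (adjusted p = 0.0155), was called in 1 of the 4 fits with an S5 array left out, and has another expressed probe set that differed by 0.04.

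Of 25 angiogenic factors and endothelial receptors, 2 rose and 2 fell (8 percent each, against 3.63 and 4.25 percent of all genes). Flt1, a VEGF receptor, read 3.19 and 3.26 against 6.89 and 7.04, at least 7.79-fold higher (adjusted p = 2.14e-06). Another Flt1 probe set differed by 2.96. The remaining Flt1 probe sets differed by -0.02 and 0.12 and stayed in the low mode in S5 cells, with means of 7.32 and 7.35 in untreated KO cells. Vegfc, a lymphatic growth factor, read 10.89 and 11.02 against 12.21 and 12.26, 2.43-fold higher (adjusted p = 0.00264). The calls of Flt1 and Vegfc held without any given S5 array. Apln, the apelin precursor gene, which is not on the list, rose at least 7.39-fold, from 3.19 and 2.93 to 7.22 and 6.55 (adjusted p = 0.000151). Pdgfb, a platelet-derived growth factor chain, fell from 4.94 and 5.43 to 4.07 and 3.44 (adjusted p = 0.0197), at least 2.27-fold down to the bound. It lost its call without untreated replicate 2 (0.114) or treated replicate 2 (0.0665).

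Other large rises came from genes of unlike function. Plxna2, a semaphorin receptor of axon guidance, read 5.65 and 5.15 untreated and 10.35 and 10.25 treated, 29.8-fold higher (4.90 ± 0.24 SE, adjusted p = 7.62e-05). It was 1 of 2 rises among 71 guidance genes, of which 5 fell (2.82 and 7.04 percent, against 3.63 and 4.25 percent of all genes). Serpinb1a, an inhibitor of neutrophil proteases, read 5.95 and 4.51 against 9.57 and 9.64, 20.8-fold higher (adjusted p = 0.00306). Its untreated arrays stand apart from each other, yet both are far below the treated ones.

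Cdk6, a kinase of the G1 phase, read 7.51 and 7.02 against 10.52 and 10.63, 9.96-fold higher (adjusted p = 6.93e-05). Tent5c, a poly(A) polymerase gene, read 4.36 and 4.48 against 7.34 and 8.18, 10.2-fold higher (adjusted p = 0.000788). Eps8, an actin-capping adaptor, rose 5.75-fold and the metalloreductase gene Steap1 5.58-fold. Cyp26b1, which breaks down retinoic acid, rose at least 6.75-fold, from 3.51 and 3.34 to 6.57 and 6.94 (adjusted p = 0.00187). These 5 genes, Plxna2 and Serpinb1a were called without any given S5 array.

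Among 340 solute carriers, 17 rose and 20 fell, shares of 5 and 5.88 percent against 3.63 and 4.25 percent of all genes. Slc45a3, a carrier of the sugar transporter type, read 4.06 and 3.82 untreated and 8.01 and 8.52 treated, at least 19.2-fold higher when its untreated mean of 3.94 is set to the bound (adjusted p = 7.62e-05). Slc4a4, a sodium bicarbonate cotransporter gene, read 2.73 and 3.93 against 6.01 and 7.42, at least 6.56-fold higher, with a wide spread in both groups (adjusted p = 0.00991). Mfsd2a, which carries lysophospholipids, read 2.21 and 2.23 against 7.19 and 6.25, at least 6.59-fold higher (adjusted p = 0.000208). Slc1a3, a glutamate carrier gene, fell 3.36-fold, from 9.26 and 9.40 to 7.45 and 7.72 (adjusted p = 0.00715).

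More transcription factors of development fell than rose. Over 356 measured members of the homeobox, T-box, SOX, FOX, GLI, GATA, bHLH, zinc finger and related families, 31 fell (8.71 percent, against 4.25 percent of all genes) and 9 rose (2.53 percent, against 3.63 percent). The list's median change was -0.02, and 213 members were in the low mode in both S5 groups. Of the 31, 10 fell at least 2-fold, and 4 (Glis1, Hoxa13, Isl2 and Grhl1) were in the low mode in both groups, so they have no fold. Centring the arrays gave 38 falls and 6 rises.

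The calls of many of these factors rest on the spread estimated over all 12 arrays. The fit to S5 arrays alone kept 8 of the 31, and averaging the probe sets of a gene kept 27. Without untreated replicate 1 or 2, 16 and 13 of the 31 kept their calls, and without treated replicate 1 or 2, 15 and 22. Those kept in all 4 fits were Gli2, Dmrta1, Bcl11b, Sox9, Tbx2, Prdm6, Tbx20, Foxn3, Sox21 and Hoxa13. In all 31 both untreated arrays lay above both treated ones, as they did in 42.9 percent of all genes.

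Gli2, the main activator among the hedgehog effectors, read 8.37 and 8.34 untreated and 3.69 and 5.26 treated. This was the largest fall of all genes tested, 14.7-fold (-3.88 ± 0.46 SE, adjusted p = 0.00407), and the treated arrays stood far apart, 1 of them below the bound. Gli3, the effector that acts mostly as a repressor, rose 1.33-fold, from 12.62 and 12.64 to 13.03 and 13.05 (adjusted p = 0.0152), and lost its call in each of the 4 fits with an S5 array left out (adjusted p between 0.06 and 0.0801). The fit to S5 arrays alone gave Gli3 an adjusted p of 0.0398.

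Other members of the hedgehog pathway fell beside Gli2. Of 21 measured genes 4 fell (19 percent, against 4.25 percent of all genes), all called without any given S5 array. Gas1, a coreceptor, read 12.77 and 12.74 against 11.23 and 11.58, 2.55-fold lower (adjusted p = 0.00119). Hhat, the acyltransferase that matures the ligand, read 8.57 and 8.64 against 7.28 and 7.53, 2.29-fold lower (adjusted p = 0.00647). Disp1, which releases the ligand from cells, fell 1.85-fold (adjusted p = 0.00809). The fit to S5 arrays alone called none of the 4 (0 of 4; adjusted p between 0.0521 for Hhat and 0.0934 for Gli2).

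SOX factors, regulators of cell fate with an HMG box, fell in 5 of 19 cases (26.3 percent, against 4.25 percent of all genes). Of them 0 rose (1 had a higher value at an unadjusted p under 0.05 in limma). Sox9, the master factor of cartilage, read 8.49 and 8.5 untreated and 5.73 and 6.17 treated, 5.84-fold lower (-2.55 ± 0.22 SE, adjusted p = 0.00104). The untreated arrays agree closely and the groups are wide apart. Sox11 read 11.86 and 11.95 against 10.25 and 10.54, 2.85-fold lower (adjusted p = 0.0195).

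Sox4, the close relative of Sox11, read 14.05 and 14.08 against 13.33 and 13.62, 1.5-fold lower (adjusted p = 0.0325), and Sox6, a partner of Sox9 in cartilage, fell 1.74-fold (adjusted p = 0.0381). Sox6 has a second expressed probe set that differed by 0.05. Sox11, Sox4 and Sox6 each kept their calls only without treated replicate 2 among the 4 fits. Sox21 read 3.63 and 4.37 against 2.43 and 2.50, so its level is at the bound and its fold is not resolved.

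T-box factors, which pattern limbs and the heart, fell in 4 of 14 cases (28.6 percent, against 4.25 percent of all genes). Of them 1 rose (7.14 percent, against 3.63 percent). Tbx2 read 5.64 and 5.77 untreated and 2.93 and 3.03 treated, at least 3.26-fold lower (-2.73 ± 0.27 SE, adjusted p = 0.00206), and went from a low expressed level into the low mode. Eomes read 8.99 and 8.97 against 7.35 and 7.57, 2.86-fold lower (adjusted p = 0.0366). Tbx20, a heart factor, fell 1.79-fold (adjusted p = 0.0044) and the hindlimb factor Tbx4 1.85-fold (adjusted p = 0.0456). Eomes and Tbx4 lost their calls in each of the 4 fits (adjusted p 0.0876 or more and 0.144 or more), although both passed in the fit to S5 arrays alone. Tbx6 rose from 3.33 and 3.41 to 5.54 and 4.72, at least 2.19-fold (adjusted p = 0.00577).

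Zinc finger and DM-domain factors held further large falls. Dmrta1 read 7.22 and 7.59 untreated and 2.68 and 4.47 treated, a change of -3.83 ± 0.48 SE (adjusted p = 0.00529). Its treated arrays stood far apart on either side of the bound with a mean of 3.58, and down to the bound the fall was at least 10.6-fold. Bcl11b, a repressor known from T cells and skin, read 8.68 and 8.5 against 5.33 and 6.16, 7.20-fold lower (adjusted p = 0.000834). Prdm6, a repressor of smooth muscle genes, read 9.31 and 9.41 against 7.67 and 7.82, 3.07-fold lower (adjusted p = 0.00102). Id4, an inhibitor of bHLH factors, fell 3.55-fold, from 7.93 and 7.88 to 5.60 and 6.55 (adjusted p = 0.011). Id4 lost its call without untreated replicate 1 or 2 (adjusted p = 0.0591 and 0.0631).

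The remaining falls were smaller. Dlx5, a bone and limb homeobox factor, fell 2.12-fold, from 5.65 and 5.62 to 4.08 and 5.02 (adjusted p = 0.0447), and lost its call without untreated replicate 1 (0.17) or 2 (0.174). Meis2, a Hox cofactor, fell by 0.60, Pax9, a factor of skeleton and teeth, by 0.63, and Twist2, a bHLH factor of mesenchyme, by 0.76. Foxc1, Foxm1 and Foxn3 fell by 0.76, 0.60 and 0.22, and Tcf7l2, the nuclear effector of Wnt signalling, by 0.61. The corepressor gene Runx1t1 fell by 0.59, Trps1 by 0.53, Ikzf2 by 0.41 and Nfib by 0.37. Gata3 fell to the low mode from 3.88 and 4.41. Of the other expressed probe sets of Foxm1, Tcf7l2, Runx1t1 and Trps1, 1 each differed the other way, by 0.59, 0.54, 0.55 and 0.21. The remaining expressed probe set of Foxm1 was almost unchanged (-0.03), and those of the other genes had lower values with hormone.

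**Figure D3:**
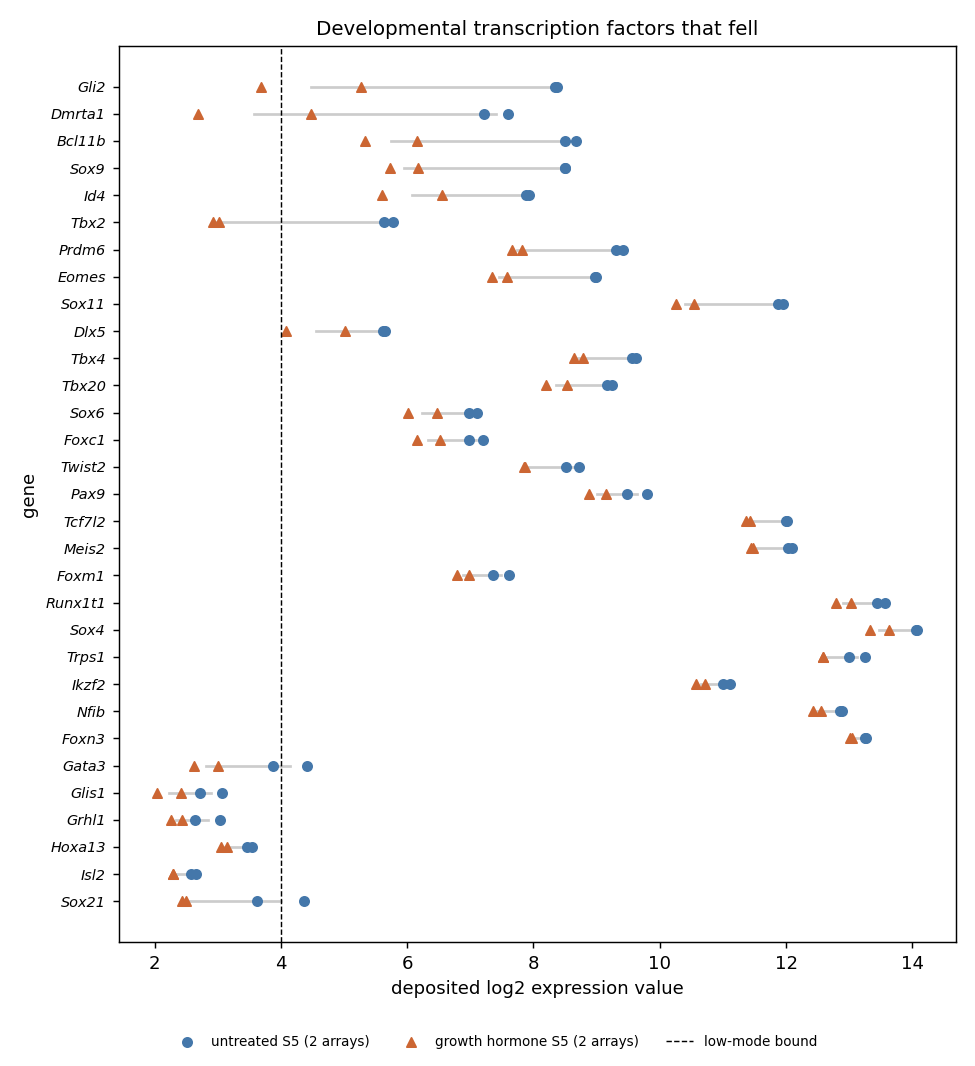
Deposited log2 value on each of the 4 S5 arrays (x axis) for the 31 developmental transcription factors that fell (y axis), ordered by the change with low groups set to the bound (dashed line); grey lines join group means. Gli2 and Dmrta1 show the longest lines and a wide gap between treated arrays, while Hoxa13, Isl2, Glis1 and Grhl1 lie wholly below 4.

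Developmental factors that rose were led by Ikzf4, a zinc finger repressor known as Eos. It read 2.84 and 3.02 untreated and 8.05 and 8.16 treated, at least 17.2-fold higher (5.17 ± 0.10 SE, adjusted p = 9.82e-07). Besides Tbx6 and Gli3, the risers were the homeobox genes Msx1 (0.71) and Irx3 (0.60), Snai1 (0.77), a driver of epithelial to mesenchymal change, Zic5 (0.61), Nfic (0.43) and Pou5f2 (1.37). Ikzf4, Tbx6 and Zic5 were called without any given S5 array. Outside the list, Bach2, a bZIP repressor of lymphocytes, read 4.28 and 4.21 against 7.54 and 7.81, 10.7-fold higher (adjusted p = 7.02e-05).

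Of 23 Kruppel-like (KLF) and SP factors 3 rose and 1 fell (13 and 4.35 percent, against 3.63 and 4.25 percent of all genes). The share of falls was near that of all genes. Klf5 read 7.67 and 7.59 untreated and 9.21 and 9.37 treated, 3.16-fold higher (adjusted p = 0.00115). Klf2, a factor of quiescence, read 10.30 and 10.47 against 8.21 and 8.11, 4.66-fold lower (adjusted p = 0.0379), with an adjusted p of 0.12 to 0.174 without an S5 array and 0.0308 in the fit to S5 arrays alone. Among 24 ETS factors 2 fell (8.33 percent, against 4.25 percent of all genes). Of these, Erg, known from endothelium, read 5.34 and 4.99 against 4.23 and 4.07, 2.02-fold lower (adjusted p = 0.00248).

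Of 305 zinc finger genes of the Zfp series, 19 fell (6.23 percent, against 4.25 percent of all genes) and 3 rose (0.984 percent, against 3.63 percent). With an S5 array left out, 5 to 18 falls were counted. The 33 Hox genes gave 1 fall (3.03 percent, against 4.25 percent of all genes), Hoxa13, in the low mode. Of the 33, 23 were in the low mode in both S5 groups.

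Shares of falls differed among the ligands and receptors of patterning pathways, against 4.25 percent of all genes. Of 60 Wnt ligands, receptors and antagonists 8 fell (13.3 percent) and 0 rose (1 had a higher value at an unadjusted p under 0.05). Fzd5, a Wnt receptor, read 11 and 10.93 untreated and 9.93 and 9.51 treated, 2.38-fold lower (adjusted p = 0.00271). Wnt2 fell 2.27-fold (adjusted p = 0.0395) and Rspo2, a secreted enhancer of Wnt signalling, 1.68-fold (adjusted p = 0.00343). Fzd5 and Rspo2 held without any given S5 array, and Wnt2 in none of the 4 fits (adjusted p 0.086 to 0.194).

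Of 64 TGF-beta and BMP signalling genes, 8 fell and 3 rose (12.5 and 4.69 percent, against 4.25 and 3.63 percent of all genes). Bmp2, a bone morphogenetic protein, read 8.12 and 7.87 against 5.70 and 6.05, 4.35-fold lower (adjusted p = 0.00478). Inhbb, an activin subunit gene, read 10.05 and 9.99 against 8.01 and 8.49, 3.41-fold lower (adjusted p = 0.00199), whereas the other activin subunit gene Inhba rose 2.33-fold, from 10.39 and 10.16 to 11.66 and 11.33 (adjusted p = 0.00518). Tgfb2 read 12.51 on both untreated arrays and 11.46 and 11.73 on the treated ones, 1.89-fold lower (adjusted p = 0.00737). All 4 held without any given S5 array.

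Among 29 FGF ligands and receptors 3 fell (10.3 percent) and 1 rose (3.45 percent). Among 25 Notch pathway genes 1 fell and 1 rose (4 percent each). Over all genes 4.25 percent fell and 3.63 percent rose. Fgf18, a skeletal growth factor, read 9.43 and 9.07 against 6.66 and 6.76, 5.80-fold lower (adjusted p = 0.0161), and Fgfr2 fell 1.54-fold (adjusted p = 0.0194). Fgf18 lost its call in each of the 4 fits with an S5 array left out (adjusted p 0.0538 to 0.0854), and Fgfr2 in all but that without treated replicate 2 (0.0746 to 0.112).

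Both Ras exchange factor genes among the 40 largest falls held without any given S5 array. Rasgrp1, an exchange factor that loads Ras with GTP, read 8.17 and 8.15 untreated and 5.86 on both treated arrays, 4.90-fold lower (adjusted p = 0.00282). Rasgrf2, another exchange factor of Ras, read 6.97 and 6.85 against 4.85 and 4.69, 4.41-fold lower (adjusted p = 0.00119). Of 31 MAPK phosphatases and Sprouty inhibitors 2 fell (6.45 percent, against 4.25 percent of all genes) and 0 rose (3 had higher values at an unadjusted p under 0.05). The ERK phosphatase gene Dusp6 read 7.26 and 7.89 against 6.27 and 5.25 (adjusted p = 0.0464), and Dusp14 read 7.60 and 7.66 against 5.94 and 5.73 (adjusted p = 0.0144).

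Dusp6 kept its call in 1 of the 4 fits with an S5 array left out, that without treated replicate 1 (0.0448), and Dusp14 in 0 of them (adjusted p 0.0588 to 0.0839). Rgs17, which limits G protein signalling, fell 3.91-fold, from 6.52 and 6.42 to 3.97 and 5.05 (adjusted p = 0.0119), and lost its call without untreated replicate 1 (0.065) or 2 (0.0646).

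Genes of amino acid and unfolded protein stress fell in 6 of 29 cases (20.7 percent, against 4.25 percent of all genes) and rose in none of them. The count of rises was 0 also at an unadjusted p under 0.05 in limma. The median change was -0.191, against -0.022 over all genes. Chac1, which degrades glutathione, read 10.89 and 10.81 against 8.39 and 8.88, 4.65-fold lower (adjusted p = 0.00183). Slc7a5, a carrier of large amino acids, fell 1.54-fold (adjusted p = 0.0116) and kept its call only without treated replicate 2 (0.0368). Chac1 held without any given S5 array and was the only 1 of the 6 to do so.

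Adamts18, a secreted metalloproteinase gene, read 8.36 and 7.84 against 6.04 and 4.77, 6.49-fold lower (adjusted p = 0.0068). The hair keratin-associated gene Krtap1-5 read 6.37 and 6.12 against 3.25 and 3.30, at least 4.75-fold lower (adjusted p = 1.15e-05, the smallest of the falls named here). Elavl2, a neuronal RNA-binding protein gene, read 7.82 and 7.72 against 6.02 and 5.73, 3.72-fold lower (adjusted p = 0.00155).

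Tubb3, a neuronal tubulin, fell 4.85-fold, from 6.69 and 6.78 to 5.06 and 3.86 (adjusted p = 0.0157), and lost its call without untreated replicate 1 (0.0709) or 2 (0.0896). The probe set of the noncoding gene Dio3os read 7.78 and 7.76 against 5.39 and 5.41, 5.18-fold lower (adjusted p = 0.00179). Neu3, a membrane sialidase gene, fell 4.52-fold (adjusted p = 0.00925), and Ppp1r3c, which directs a phosphatase to glycogen, read 10.86 and 10.87 against 8.98 and 8.91, 3.78-fold lower (adjusted p = 0.0104). Neu3 lost its call without untreated replicate 2 (0.0585), and Ppp1r3c kept it only without treated replicate 2 (0.0423). Among matrix genes, 2 of 42 collagen chains (4.76 percent) and 4 of 66 metalloproteinases and TIMPs (6.06 percent) fell, against 4.25 percent of all genes. Of the collagens 0 rose (3 had higher values at an unadjusted p under 0.05 in limma), and 0 of 18 smooth muscle contractile genes passed the test (1 higher and 4 lower at an unadjusted p under 0.05 in limma).

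**Figure D4:**
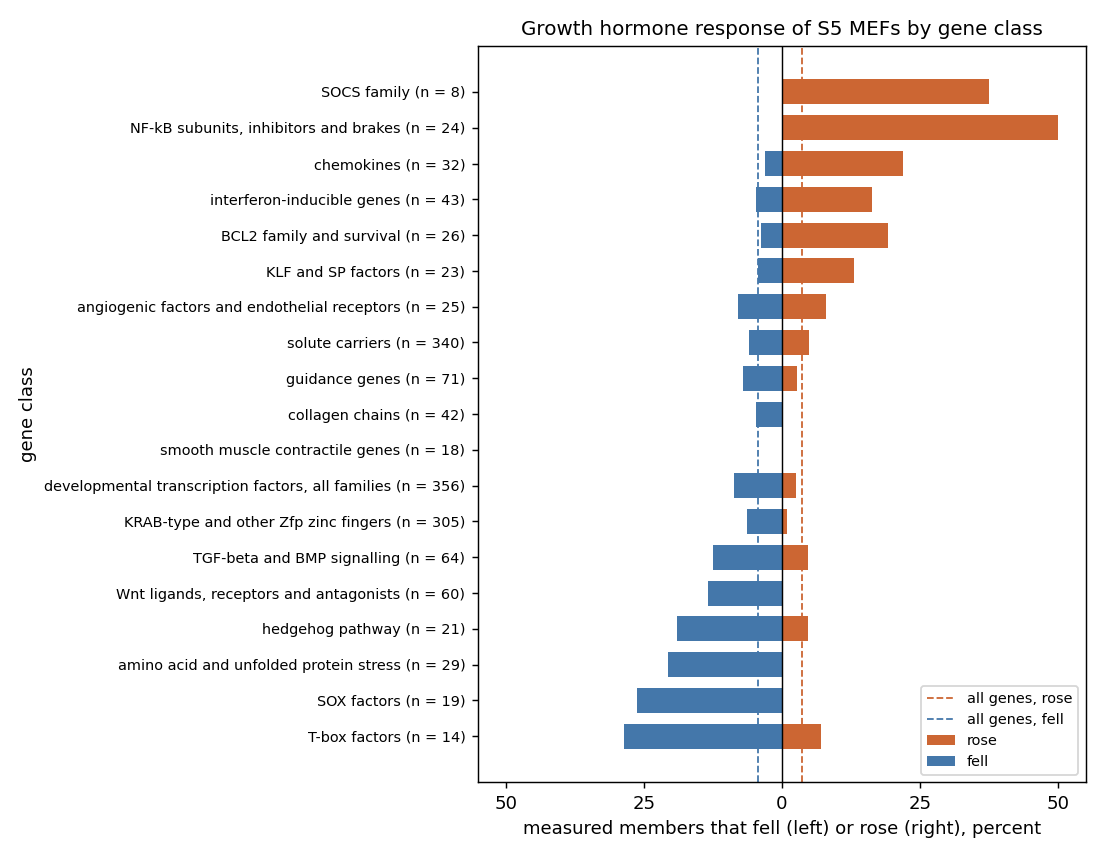
Share of the measured members of 19 gene classes that fell (bars to the left) or rose (bars to the right) in S5 cells, in percent, with the number measured in brackets; dashed lines mark the shares over all genes, 4.25 and 3.63 percent. NF-kB genes reach 50 percent to the right, and T-box factors 28.6 percent to the left.

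Set beside the other genotypes, the hormone raised 41 genes in KO cells (0.225 percent) and 557 in WT cells (3.06 percent), and lowered 15 (0.0824 percent) and 535 (2.94 percent). In all, 0.308 percent of genes changed in KO and 6 percent in WT cells, against 7.88 percent in S5 cells. The S5, KO and WT responses use separate arrays but 1 estimate of the spread per gene. Of the 660 rises in S5 cells, 152 were also called as rises in WT cells, 23.0 percent of the S5 list and 27.3 percent of the WT list. Of the 773 falls, 152 were shared, 19.7 and 28.4 percent. In KO cells 27 of the 41 rises were shared with S5 (65.9 percent of the KO list and 4.09 percent of the S5 list).

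A gene that passes in S5 and not elsewhere need not differ between genotypes, so the differences of the responses were tested. The S5 response was higher than the KO response for 117 genes (0.643 percent) and lower for 88 (0.484 percent). It was higher than the WT response for 256 genes (1.41 percent) and lower for 276 (1.52 percent), so that 1.13 percent of genes differed from KO and 2.92 percent from WT. The balance against KO was 108 higher and 114 lower with centred arrays, and 105 and 131 without replicate 1 of the treated KO arrays. Both comparisons use the same 4 S5 arrays. The WT cultures carried far more RNA of macrophage and blood markers, with a list mean of 9.07 to 10.52 per array against 3.26 to 3.66 in S5 cells and 4.15 to 4.49 in KO cells. The part of that difference in the S5 minus WT results was not tested.

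Among the 40 largest rises, the response differed from that of KO cells for 29 and from that of WT cells for 27, and 19 were called as rises in WT cells too. Among the 40 largest falls, 14 differed from KO and 23 from WT, and 5 were called as falls in WT cells. Over all genes, 1.13 percent differed from KO and 2.92 percent from WT. Both lists were chosen by the S5 change, which also enters these differences, so the counts are a description. Of the 3 SOCS genes that rose in S5 cells, 2 also rose in WT cells. Cish changed by 5.75 in S5, -0.37 in KO and 3.14 in WT cells, Socs2 by 4.51, 0.67 and 4.22, and Bcl6 by -1.22, 0.00 and -1.88. Socs3 changed by 2.53, -0.08 and 1.10 and did not pass in WT cells (adjusted p = 0.0822). All 4 differed between S5 and KO cells (adjusted p = 4.53e-05, 0.000162, 0.011 and 0.0377).

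Some inflammatory genes that rose in S5 cells also rose in KO cells: 4 of the 7 chemokines and 4 of the 12 NF-kB genes, against 4.09 percent of all S5 rises. Of the 7 interferon-inducible genes 0 did, which is near that share. The smallest adjusted p of the interferon list in KO cells was 0.201 in limma, with 3 higher values at an unadjusted p under 0.05. Cxcl5 changed by 3.92 in S5, 4.11 in KO and 3.21 in WT cells, and Bcl3 by 4.51, 3.98 and 3.66. Ccl2 changed by 6.18 in S5 and 2.14 in KO cells, Ccl7 by 3.76 and 1.07, and Cxcl10 by 6.11 and 3.65, and in these 3 and in Csf1 the S5 response was the larger by the test of the difference. Before treatment Ccl2 stood at 6.32 in S5 and 10.29 in KO cells, and Ccl7 at 6.74 and 9.36. None of the 12 NF-kB genes that rose differed between S5 and KO cells at an adjusted p under 0.05 (smallest 0.0695, for Relb), and 3 had a smaller response in S5 than in WT cells. Other rises were larger in S5 cells: Igfbp3 changed by 4.49, -0.44 and 0.21, Ikzf4 by 5.17, -0.02 and 0.70, Plxna2 by 4.90, -0.17 and 0.37, and Cdk6 by 3.32, 0.55 and 0.73. In these 4 genes the S5 response exceeded both the KO and the WT response in the tests of the differences (largest adjusted p 0.00218, for Cdk6 against KO). Their untreated levels differed between genotypes. Igfbp3 started at 4.71 in S5, 11.24 in KO and 12.16 in WT cells and reached 9.20 in treated S5 cells. Plxna2 started at 5.40, 10.09 and 8.39 and reached 10.30, and Cdk6 started at 7.26, 10.39 and 11.19 and reached 10.58. Ikzf4 started in the low mode in all 3 (2.93, 3.06 and 3.05) and reached 8.10 in treated S5 cells.

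Developmental factors that fell in S5 cells had a median change of -0.76 there, -0.07 in KO and -0.09 in WT cells. The members were chosen by their fall in S5, so the first value is a description. None of the 356 developmental factors passed in KO cells (0 rose and 0 fell), near the shares of 0.225 and 0.0824 percent over all genes. At an unadjusted p under 0.05 in limma, 10 were higher and 15 lower there. In WT cells 12 rose and 39 fell, against 3.06 and 2.94 percent of all genes. Of the 31 that fell in S5, 8 had a response that differed from KO, 10 differed from WT and 7 from both. Another count, of those also called as falls in WT cells, was 6. Over all genes, 1.13 percent differed from KO and 2.92 percent from WT. Among all falls in S5 cells, 10.1 percent differed from KO, 16.2 percent differed from WT and 19.7 percent were also called as falls in WT cells. The S5 fall enters both differences, so these counts are a description. With low groups set to the bound, both differences were 0.00 for Glis1 and Hoxa13. Some had means under the bound in untreated KO and WT cells, where a fall cannot be measured. Examples are Dmrta1 (2.54 and 2.53), Tbx2 (2.37 and 3.34), Prdm6 (2.15 and 3.09) and Tbx20 (2.84 and 2.83). Others were expressed there, such as Gli2 (9.84 and 9.76), Bcl11b (11.62 and 11.01) and Sox9 (9.02 and 7.64).

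Sox9 changed by -2.55 in S5, -0.08 in KO and -0.01 in WT cells, and Bcl11b by -2.85, -0.04 and -0.70. Gli2 changed by -3.88, -0.07 and -0.27, and its difference passed narrowly (adjusted p = 0.0483 against KO and 0.0322 against WT). Id4 changed by -1.83, -0.43 and -1.92 and was not called different from either. Twist2 moved the other way in WT cells, by 0.79 against -0.76 in S5.

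**Figure D5:**
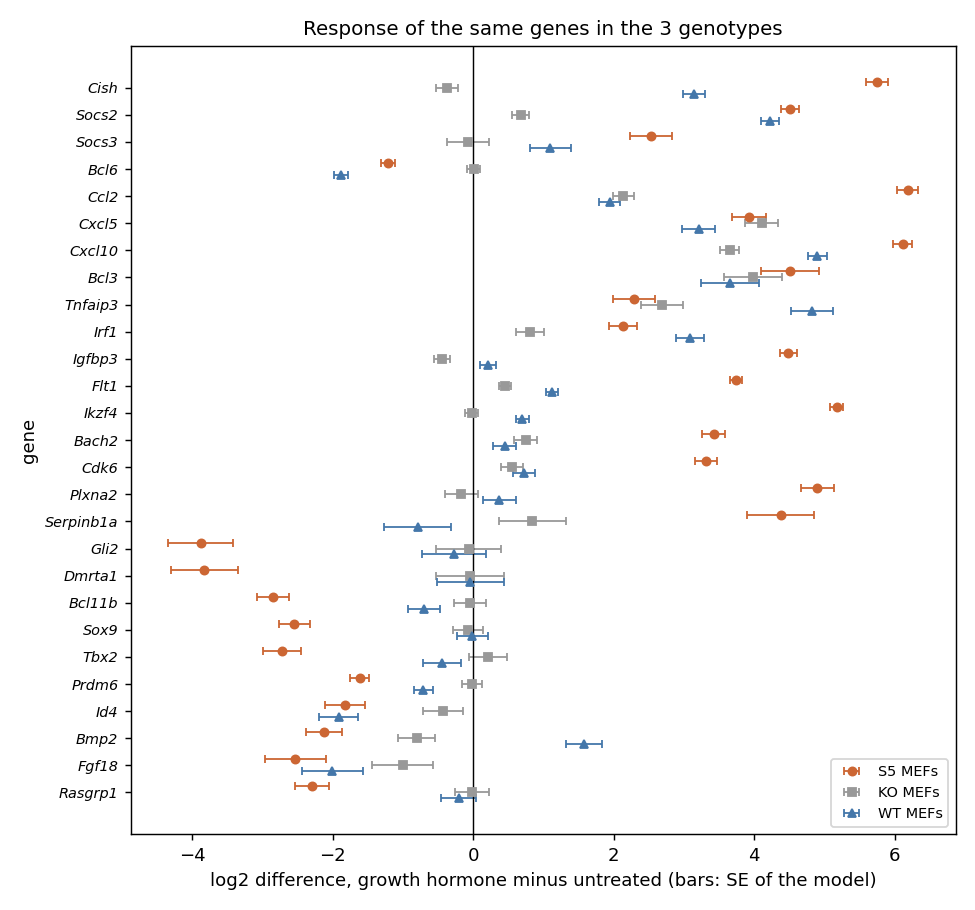
Log2 difference between growth hormone and untreated cells (x axis) for 27 genes (y axis) in S5, KO and WT MEFs; bars are SEs of the model and values are not floored. Cxcl5 and Bcl3 changed in all 3 genotypes, Socs2 in S5 and WT (4.51 and 4.22), while Igfbp3, Plxna2 and Sox9 stand apart in S5.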

How the data were processed

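The data are 12 Affymetrix expression arrays, of which the 4 of S5 cells are described. The authors deposited log2 values for 45101 probe sets; GCOS and RMA are named in the submitters' processing notes, without settings. No label states the log base, which is read from the range of 0.99 to 15.95. A platform table paired 34945 probe sets with 1 gene, 932 with several and 9160 with none; 64 control probe sets were left out. Of the 18193 genes, 9010 had several probe sets and the one with the highest mean over 12 arrays was used.

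The model, fitted in R 4.3.3 with limma 3.58.1, gave each of the 6 groups its own mean (6 residual and 1.2 prior degrees of freedom); tests were two-sided, with Benjamini-Hochberg adjustment over all genes at 0.05. SEs are from the moderated model, and the 2 arrays per group limit the precision. The procedure was tested on simulated data. Interactions are differences between hormone responses. Replicate numbers were checked for pairing: the array differences of same-numbered pairs correlated with r = 0.0836 in S5, -0.365 in KO and -0.0434 in WT, so no pairing was used.

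The members, gene lists and tests were chosen with earlier results of these data known. Genes could be named if among the 40 largest rises or 40 largest falls (passing the test, with arrays of the groups not overlapping, ranked after setting low groups to 4, without clone or locus names), on a gene list, or if Stat5a, Stat5b, Ghr, Jak2, Cish, Socs2, Igf1 or Bcl6. Alternatives were other scaling, probe sets, filters, priors, weights, a replicate block and leaving out arrays; leaving out KO and WT arrays, other bounds, and array and centring changes of class counts were added after the data were seen. Promoter sequences are from RefSeq (GRCm38.p6).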

Additional observations from a re-analysis of the deposited data

Results flagged for a closer look

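Of 145 genes whose expression is described in the text, 45 had a growth hormone response in S5 cells that differed from that in KO cells. For 58 it differed from that in WT cells, and for 34 from both, by limma's test of the difference at an adjusted p under 0.05. Over all genes tested, 1.13 percent differed from KO and 2.92 percent from WT. Many of the 145 were named for their S5 change, which enters both differences, so the counts are a description. Values in brackets are the S5 response minus the other response on the log2 scale, without setting low groups to the bound, and both comparisons use the same 4 S5 arrays. No explanation was tested.

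Relative to KO cells the S5 response was higher for Cish (6.11), Socs2 (3.84), Socs3 (2.61), Ccl2 (4.05), Ccl7 (2.69), Cxcl10 (2.47), Csf1 (0.86), Ifi47 (4.0) and Gbp7 (2.21). It was also higher for Igfbp3 (4.93), Flt1 (3.28), Apln (3.78), Vegfc (1.5), Ikzf4 (5.20), Bach2 (2.68), Msx1 (1.21), Cdk6 (2.77) and Tent5c (3.35). The higher responses include Plxna2 (5.07), Slc45a3 (4.59), Mfsd2a (4.54), Cyp26b1 (3.64), Steap1 (2.16), Eps8 (2.29) and Fas (1.07). It was lower than in KO cells for Bcl6 (-1.22), Stat3 (-0.74), Pias1 (-0.56), Gli2 (-3.81), Glis1 (-1.32), Bcl11b (-2.80), Prdm6 (-1.60), Sox9 (-2.47) and Tbx2 (-2.94). A lower response was found for Hoxa13 (-0.41), Twist2 (-1.03), Erg (-0.99), Disp1 (-1.13), Fzd5 (-1.28), Inhbb (-1.79), Rasgrp1 (-2.28), Rasgrf2 (-2.11) and Elavl2 (-1.87). The lower ones include Krtap1-5 (-2.91) and Dio3os (-2.61).

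Relative to WT cells the S5 response was higher for Cish (2.61), Pias4 (1.39), Ccl2 (4.24), Ccl7 (1.62), Cxcl10 (1.22), Ifi47 (1.74), Igfbp3 (4.28), Flt1 (2.62) and Apln (3.96). Higher values were also found for Vegfc (1.16), Ikzf4 (4.47), Bach2 (2.98), Klf5 (1.43), Msx1 (1.10), Gli3 (0.70), Tbx6 (1.75), Zic5 (0.73) and Cdk6 (2.59). The list goes on with Tent5c (4.04), Plxna2 (4.53), Slc45a3 (4.40), Mfsd2a (2.31), Serpinb1a (5.17), Steap1 (2.15), Eps8 (2.55), Bcl2 (1.63), Bmf (2.32) and Elovl6 (0.89). It was lower than in WT cells for Fas (-1.43), Stat5a (-0.83), Stat5b (-0.37), Cx3cl1 (-2.35), Il1rn (-2.03), Tnfaip3 (-2.53), Nfkbie (-2.71), Tnip1 (-1.43), Ifit3 (-2.30) and Pdgfb (-6.20). Lower values were also found for Gli2 (-3.61), Glis1 (-1.69), Dmrta1 (-3.79), Bcl11b (-2.14), Sox9 (-2.53), Sox21 (-1.45), Tbx2 (-2.28), Tbx20 (-0.75) and Hoxa13 (-0.36). To these come Twist2 (-1.55), Erg (-0.95), Bmp2 (-3.70), Inhbb (-1.94), Rasgrp1 (-2.08), Rasgrf2 (-1.69), Adamts18 (-2.60), Chac1 (-1.81) and Elavl2 (-1.81). The last are Krtap1-5 (-2.85) and Dio3os (-1.77). The Stat5a and Stat5b probe sets tested were in the low mode on all 4 S5 arrays, so their differences hold the WT change and no measured S5 response. Some genes with a lower S5 response, such as Tbx2 and Prdm6, had means under the bound in untreated KO and WT cells, where a fall cannot be measured. With low groups set to the bound, the difference from WT was of opposite sign for Cxcl10 (-0.59) and 0.00 for Sox21, and both differences were 0.00 for Glis1 and Hoxa13. On that scale the difference from WT shrank to 0.35 for Ifi47 and 0.53 for Mfsd2a. Macrophage and blood markers had a mean of 9.07 to 10.52 on the WT arrays and 3.26 to 3.66 on the S5 arrays, whose part in the differences from WT was not tested.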

How the results depend on the processing

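The count of genes called for the hormone effect in S5 cells (1433) depended most on how the spread was estimated. The fit to the S5 arrays alone called 532 and array weights 2914. Leaving out 1 S5 array gave 552 to 1180 genes, with 682, 552 and 661 without untreated replicate 1, untreated replicate 2 and treated replicate 1, and leaving out a KO or WT array gave 1207 to 1536. For the S5 response minus the KO response (205 genes), the fit to the groups compared gave 114, and leaving out 1 array gave 155 to 263. For the S5 response minus the WT response (532 genes), array weights gave 827, and leaving out 1 array gave 363 to 580. The cause of these shifts was not tested. With the replicate block the counts were 1173, 180 and 454. Centring, quantile normalization, averaging probe sets, a minimum mean of 4 and a trended prior stayed within 1.5 times of each count. No named call changed direction under these settings. The balance of rises and falls did turn: the S5 effect (660 higher, 773 lower) gave 368 and 293 without treated replicate 1, and the difference from KO (117 and 88) gave 108 and 114 with centring.

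Of the 138 genes described in the text that were called, 133 kept their call after centring, 131 after quantile normalization, 125 with probe sets averaged, 60 in the fit to the S5 arrays alone and 125 with the replicate block. A bound of 3 in place of 4 gave 226 rises and 176 falls of at least 2-fold, and a bound of 5 gave 185 and 131. Leaving out KO and WT arrays, the other bounds and setting a group to the bound by its mean were chosen after seeing the data. Signal near background limits the folds of 7311 genes in the low mode in both S5 groups, 53 of which were called.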

Other observations

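Genes of cell survival and metabolism were described by the same lists. Over all genes 3.63 percent rose and 4.25 percent fell. Of 26 genes of the BCL2 family and survival, 5 rose (19.2 percent) and 1 fell (3.85 percent), with a median change of 0.211 against -0.022 over all genes. The calls of 4 of the 5, Bcl2, Birc3, Bmf and Fas, held without any given S5 array, as did that of Pmaip1, the gene that fell. Of 27 genes of cholesterol and fatty acid synthesis, 2 rose (7.41 percent) and 3 fell (11.1 percent). The rises of Elovl6, a fatty acid elongase gene, and Stard4, a sterol carrier gene, held without any given S5 array. Of 38 genes of DNA replication and mitosis, 2 fell (5.26 percent) and 0 rose (0 also at an unadjusted p under 0.05 in limma). The 45 immediate early genes gave 2 rises (4.44 percent) and 4 falls (8.89 percent), and none of these 6 held without any given S5 array.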
